A study of Ambystoma mexicanum with 20 samples.

Results

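The oocyte of the axolotl (Ambystoma mexicanum, a salamander) is a very large cell with an animal pole, near which the nucleus lies, and a yolk-rich vegetal pole. In amphibian oocytes some maternal RNAs are carried to the vegetal cortex and anchored there, among them RNAs of the germ plasm and of early patterning factors in the frog Xenopus, while many housekeeping RNAs are thought to spread through the cytoplasm. RNAs of the latter kind are the usual reference against which a localized RNA is judged. The features described here are the most abundant of those whose level, as a mean over oocytes, was split between 5 segments of the axis within set limits around an equal split.

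RNA was sequenced from 4 oocytes, each sectioned on a cryostat and collected as 5 segments from A (animal end) through B, C and D to E (vegetal end), which gives 20 libraries with 1 library per segment and oocyte. The oocytes are untreated, and the labels give no strain, stage, age or mother. Whether the oocytes came from 1 animal or several is therefore not known. In the main tests among segments, p-values set differences against the spread between these oocytes. In the test between oocytes, the 5 segments of an oocyte served as its replicates. Its p-values measure scatter within these 4 oocytes and do not extend to oocytes in general. Each library was made from 80 ng of total RNA after depletion of ribosomal RNA, so a level is a part of the RNA of its segment and not an amount per segment. Totals ran from 806943 counts (segment E of oocyte 2) to 15554319 (segment A of oocyte 4).

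The members are the 300 features of highest mean CPM (counts per 1000000 counts of the library) among those with an even profile, out of 32960 features in all. For each feature the mean CPM of each segment over the 4 oocytes was divided by the sum of the 5 means to give 5 shares, where an equal split is 20%, and the profile was called even when all 5 shares lay between 16 and 24%. The members were therefore chosen on the measured segment means and levels, and their evenness in those means is a description and not a finding. An even profile was found for 8629 features, or 26.2% of the table. The other 8329 of them had lower levels, and 436 features as abundant as the members had an uneven profile. The feature identifiers are not paired with gene names in the files, and 0 of them matched the RefSeq gene table of assembly UKY_AmexF1_1, so no gene name, function, cell type marker or sequence can be given. Features can be split copies of 1 gene, which the identifiers do not show.

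The limits cut through a continuous range. Among the features as abundant as the members, the highest share just inside was 23.995% and the lowest just outside was 24.01%; at the other limit these were 16.02% and 15.98%. By level, the lowest member AMEXTC_0340000242700 had a mean of 170.9 CPM, and the first even feature below it, AMEXTC_0340000057801, had 170.4 CPM.

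The members together held 10.6% of all counts in the table, and all even features held 41.5%. The level of a member ran from 170.9 to 9075 CPM, with a median of 214 CPM. A few members dominated, since 14 had at least 1000 CPM, the 10 most abundant held 32.5% of the summed CPM of the 300, and the 49 most abundant reached 50% of it. Of the 10 features of highest CPM over all libraries, 6 were members, and of the 100 highest 36 were. CPM is not corrected for transcript length, so this order is one of reads and not of molecules. Counts of a member in a library ran from 70 to 113131, with a median of 1217.

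The proportion of features with an even profile depended on the level. It was 0.454% of 661 features under 1 CPM, 14.5% of 16827 features from 1 to 10 CPM, 39.2% of 13249 features from 10 to 100 CPM, 45.7% of 1487 features from 100 CPM up to the lowest member, and 40.8% of the 736 features at least as abundant as it. With every library thinned to 806943 counts the number of even features was 5515 in place of 8629, so the count depends on depth. In the class of the members, 296 of the 436 uneven features had their lowest share in E, 120 had their highest share in E, and 20 had neither.

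Within the limits the profiles were not flat. On CPM of library totals, the median share of the members was 20.6, 20.3, 20.4, 20.2 and 18.5% in segments A to E. On that scale E was the lowest segment for 179 of 300. D was the highest segment for 80, A for 75, C for 66, B for 45 and E for 34. The highest segment mean of a member exceeded its lowest by a factor with a median of 1.21 and a range from 1.03 to 1.46, and 125 members had all 5 shares within 2 percentage points of 20%. Over all 32302 features that entered the tests, the median share was 21.1% in A and 16.8% in E, so E was lower there too on library totals. The rank of E among the members depended on the scaling, as given below.

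The flattest member was AMEXTC_0340000144384, whose shares spanned 0.650 percentage points. It had 352, 384, 374 and 363 CPM in segment A of oocytes 1 to 4 and 381, 322, 360 and 371 CPM in segment E. In B it had 352, 371, 372 and 366 CPM, in C 352, 343, 368 and 377 CPM, and in D 335, 357, 359 and 374 CPM. The 5 segments overlapped throughout, and its level was 368 ± 14.0 CPM in A against 359 ± 25.8 CPM in E (SD, n = 4 each).

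At the other extreme AMEXTC_0340000230034 spanned 7.48 percentage points, from 23.7% in B to 16.2% in E. Its level in oocytes 1 to 4 was 247, 246, 270 and 241 CPM in A, 263, 259, 252 and 289 CPM in B, and 216, 229, 229 and 211 CPM in C. It was 176, 196, 229 and 203 CPM in D, and 170, 191, 182 and 184 CPM in E. All 4 values of E lay below all 4 of A, so a member of this group can fall from the animal to the vegetal side in every oocyte and still meet the limits. Its adjusted p among segments was 0.0605 (edgeR quasi-likelihood F-test with TMM factors, segments not paired by oocyte). In the same edgeR test AMEXTC_0340000069218 had 0.00034, AMEXTC_0340000004362 had 0.0196 and AMEXTC_0340000121907 had 0.670, the 3 members of highest level. The test uses the contrast of the rule, so these values are a description. Without pairing, differences between oocytes count as scatter in this test. As means over the segments, AMEXTC_0340000121907 had 6458 CPM in oocyte 1 and 12160 CPM in oocyte 2. Values with pairing are not given here for single members, so 0.670 and 0.0605 do not show that segments were alike.

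**Figure D1:**
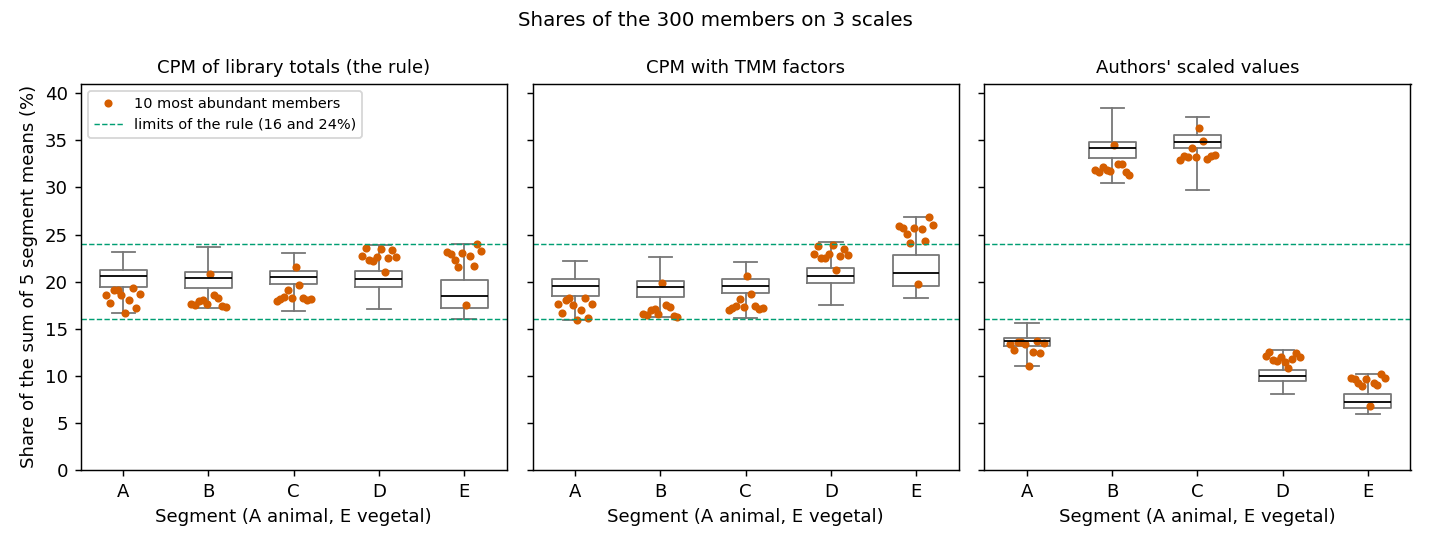
Share of the sum of the 5 segment means (%) for the 300 members in segments A to E, on CPM of library totals, on CPM with TMM factors and on the authors' scaled values. Boxes give quartiles and whiskers the full range, orange points are the 10 most abundant members, and green dashed lines are the limits of 16 and 24%; with TMM factors the 10 points lie at up to 26.9% in E, and on the authors' values the median runs from 34.9% in C to 7.25% in E.

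High shares in D and E were more frequent among the most abundant members, and not among the first 10 alone. For the 10 most abundant the median shares in segments A to E were 18.6, 17.8, 18.2, 22.6 and 22.8%, and D and E were the 2 highest segments for 9 of the 10. Members 11 to 20 by level had 19.3, 18.3, 19.0, 21.4 and 21.5%, with D and E highest for 8 of 10. For members 21 to 100 the median share was 20.4% in A and 18.8% in E, with D and E highest for 18 of 80, and for the 200 members of lowest level it was 20.7% in A and 18.1% in E, with D and E highest for 26 of them. These ranges are round numbers chosen after the values were seen.

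The evenness of the most abundant members, and the rank of segment E among all members, depended on the scaling. TMM factors rescale each library so that most features keep a like level. With these factors the median share of the members was 19.6% in A and 20.9% in E. E was then the highest segment for 151 members and the lowest for 60, against 34 and 179 on library totals. Within the limits stayed 255 of 300, and 43 of the 45 outside exceeded 24% in E. All 10 of the most abundant members were among the 45 outside, as were 6 of members 11 to 20, 11 of members 21 to 100 and 18 of the 200 members of lowest level. Among the 10, AMEXTC_0340000155836, named after its values were seen, was outside through A (15.9%) and not through E (19.7%). When the rule was applied to the TMM-scaled values, it gave 10704 even features, and 196 of the 300 members were picked again.

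On the authors' deposited scaled values none of the members (0 of 300) was within the limits, and 5 features of the table were. Each of these values is the count multiplied by a constant per library, and the constants differ between segments. The median shares of the members there were 13.7, 34.1, 34.9, 10.02 and 7.25% in segments A to E. The scaled values of all features in the table were distributed in the same way, with 13.5, 34.0, 34.5, 10.002 and 7.94% of the sum over the segment means in the same order. The origin of the constants is not given in the sources used here. An even profile of a member thus means an even part of the RNA, and on the authors' scale it means a profile close to that of the total.

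The part of a library held by the 300 members was highest in D as a mean over oocytes. In segments A to E it was 10.5% ± 0.748, 10.4% ± 0.490, 10.6% ± 0.455, 11.3% ± 0.665 and 10.8% ± 0.928 of the counts (SD, n = 4 each). The lowest library held 9.59% (segment A of oocyte 1) and the highest 12.03% (segment E of oocyte 2), and the 5 ranges overlapped. Within an oocyte, however, D held more than A, B and C in 4 of 4 oocytes and more than E in 3, while E held more than A in 2. Since the members were chosen for even shares, these differences are limited by the rule and are not tested. The 436 features as abundant but uneven held 14.3% ± 0.856 of the counts in A against 19.8% ± 1.43 in E, and the 8329 other even features held 31.1% ± 0.753 in A and 28.5% ± 1.62 in E (n = 4 oocytes, SD).

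The summed part of the 10 most abundant members varied more between oocytes than that of the other 290. In segments A to E the other 290 held 7.33% ± 0.0503, 7.26% ± 0.0472, 7.33% ± 0.0812, 7.38% ± 0.152 and 6.89% ± 0.190 of the counts (SD, n = 4 each). The 10 held 3.19% ± 0.709, 3.14% ± 0.456, 3.24% ± 0.436, 3.95% ± 0.617 and 3.88% ± 0.946 in the same order. The SD of the sum of the 10 was larger in every segment, although that sum was smaller. Within an oocyte the 290 held less in E than in each other segment in 4 of 4 oocytes, and the 10 held more in D and in E than in A, B and C in 4 of 4. As a mean over the 5 segments the 10 held 2.93% in oocyte 1, 4.14% in oocyte 2, 3.86% in oocyte 3 and 2.99% in oocyte 4, whereas the 290 held 7.20, 7.28, 7.21 and 7.28% in the same order. A sum over features that differ in opposite directions can vary less than its members do, so these sums do not compare single members. In the test between oocytes, 6 of the 10 and 120 of the 290 were called, 42.0% of the 300 together. Beside these stand 26.2% of all features tested and 42.8% of the equally abundant ones. Oocytes 2 and 3 were the 2 highest for 6 of the 10 and oocytes 1 and 4 for 2, whereas for the 290 these numbers were 100 and 123.

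With members picked again on TMM-scaled values the sum was 7.86% ± 0.116 in A and 6.42% ± 0.128 in E (n = 4, SD), a factor of over 1.5 below the main value in E. None (0) of the 10 met the limits on that scale.

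**Figure D2:**
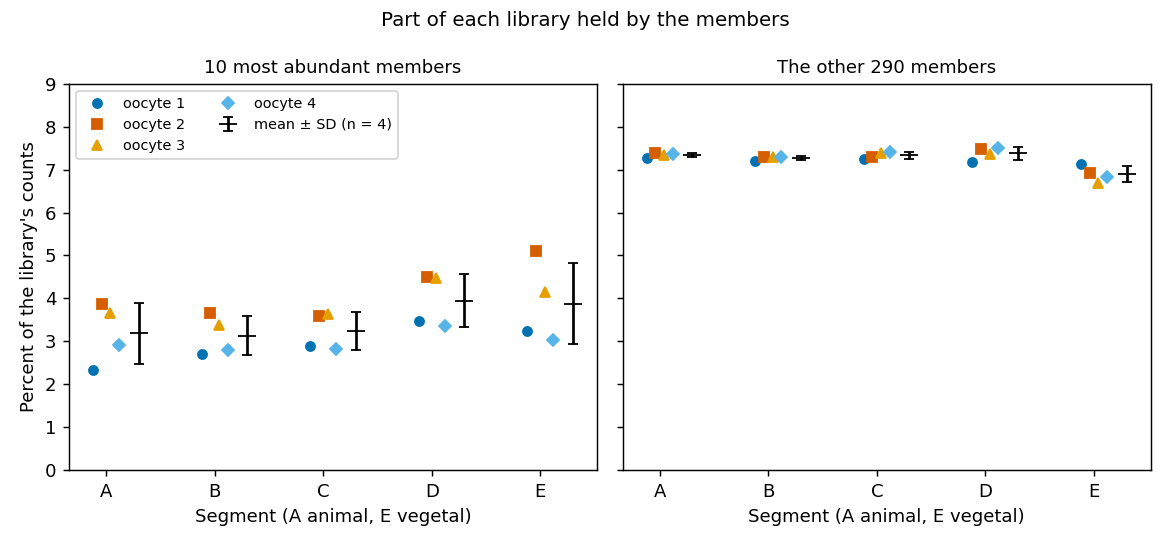
Percent of each library's counts held by the 10 most abundant members (left) and by the other 290 (right) in segments A to E; symbols are the 4 oocytes and bars the mean ± SD (n = 4). The 290 lie between 6.69 and 7.51% in all 20 libraries, while the 10 run from 2.32 to 5.10% with oocytes 2 and 3 above oocytes 1 and 4 in every segment.

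The spread of single members between oocytes was small beside that of the table, most of which had lower levels. Counting error is larger at lower levels and was not computed for the table. The coefficient of variation (CV, the SD over the mean of the CPM of 4 oocytes) had a median over the members of 8.83, 6.97, 7.93, 11.1 and 11.9% in segments A to E. Over all features tested the median was 27.3% in A and 41.2% in E, and for the 436 as abundant but uneven it was 11.6, 9.17, 12.0, 16.8 and 14.4% in segments A to E. The rule used means over the same libraries, so the difference between the members and these features is not tested.

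Counting error alone would give the members a median CV of 3.01, 3.51, 3.04, 3.12 and 4.97% in segments A to E. In B 214 of 300 members had a CV under 10%, and in E 116 did, and 59 had one under 10% in all 5 segments. A CV over 25% was found in at least 1 segment for 36 members and in all 5 for 4, which were AMEXTC_0340000121907, AMEXTC_0340000068714, AMEXTC_0340000120605 and AMEXTC_0340000091861. The last of these was named after its values were seen.

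**Figure D3:**
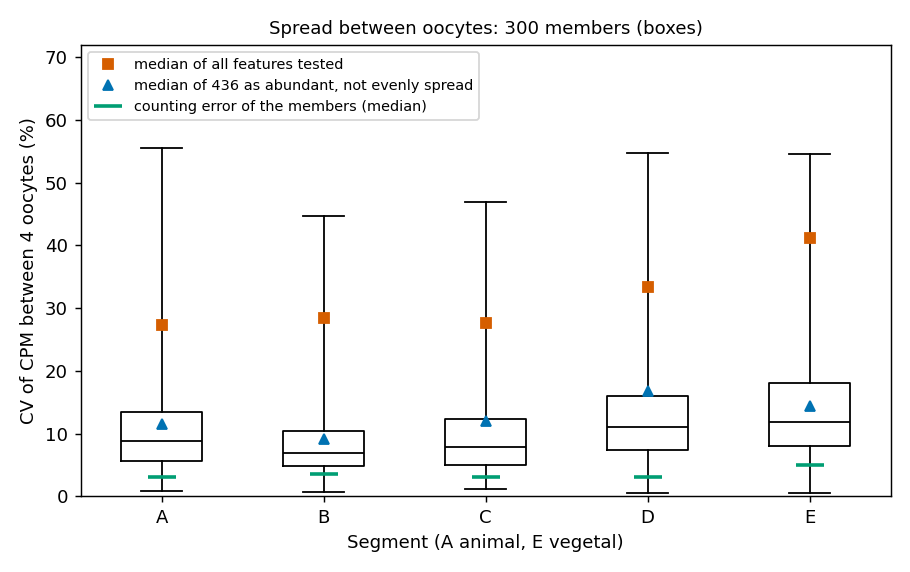
CV of the CPM between the 4 oocytes (%) in segments A to E; boxes give quartiles and whiskers the full range over the 300 members, with the medians of all features tested, of the 436 as abundant but uneven, and of counting error. The median of the members runs from 6.97% in B to 11.9% in E, below the median of all features tested, most of which had lower levels.

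The order of the members by level was largely kept between libraries. Spearman's rho over the 300 members was 0.848 at the median (range 0.658 to 0.947) when segments of a single oocyte were set against each other (40 pairs). It was 0.768 at the median (range 0.565 to 0.945) when different oocytes were compared at the same segment (30 pairs). These are descriptions across features, which are not independent replicates, and libraries of 1 oocyte share that oocyte.

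Differences between oocytes were not used by the rule and were tested with the segment held fixed. All 300 members entered this test. At an adjusted p under 0.05, 126 members (42.0%) differed between the 4 oocytes (edgeR quasi-likelihood F-test, adjusted over all features tested), against 26.2% of all features tested and 42.8% of the 736 features tested with at least the lowest level of the members. The share of members was thus near that of equally abundant features. Of the 436 uneven ones 43.3% were called, and of the less abundant even features 35.7%. DESeq2 called 177 members (59.0%), against 37.7% of all features it tested and 59.0% of the equally abundant ones.

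The differences were small for most members. The highest oocyte mean over the lowest was 1.16 at the median of the 300, with a range from 1.02 to 2.55. It was 1.28 at the median of the 126 called, and 1.11 for the 174 not called. A factor of at least 1.5 was reached by 16 members and a factor under 1.1 by 76.

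Nearly all called members had 1 of 2 pairs of oocytes as their highest. For 63 of the 126 the 2 highest oocytes were 2 and 3, for 61 they were 1 and 4, for 1 they were 1 and 2, for 1 they were 2 and 4, and for none (0) 1 and 3 or 3 and 4. The same pairs led among the 189 equally abundant uneven features called, with oocytes 2 and 3 highest for 105 and oocytes 1 and 4 for 69, so the split was also seen outside the members. Among all 300, oocytes 1 and 4 were highest for 125 and oocytes 2 and 3 for 106. The same 2 oocytes were highest in all 5 segments for 74 members (24.7%), against 13.9% of all features tested and 20.4% of the equally abundant ones. For 70 of the 126 called members this held, which the call in part fixes, since it asks for differences that recur over the segments. The labels give oocytes 1 and 4 the title numbers 10 and 9 and oocytes 2 and 3 the numbers 4 and 5, with no batch or animal, so what the 2 pairs share cannot be told apart from differences between single oocytes. The median share in E was 18.3% for the 63 and 18.8% for the 61.

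**Figure D4:**
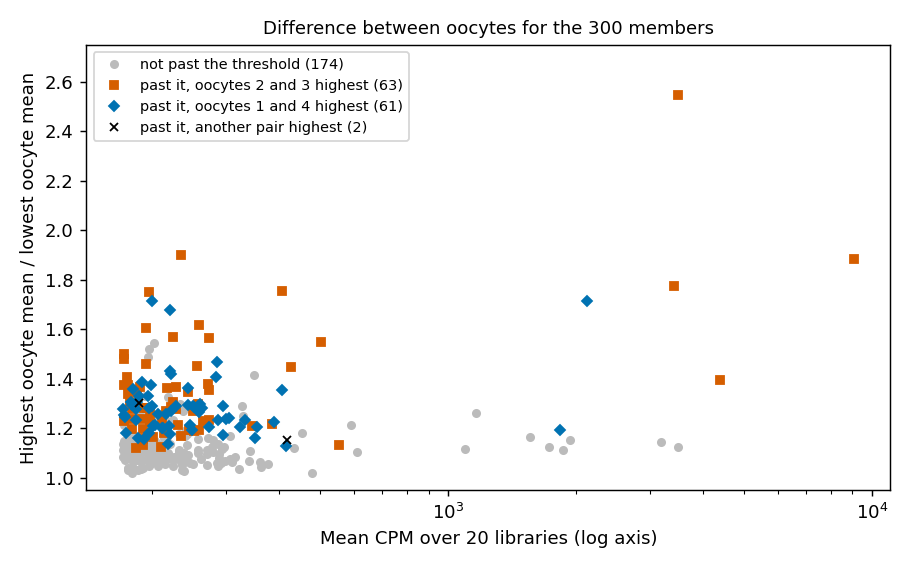
Highest over lowest oocyte mean (each over 5 segments) against the mean CPM (log axis) of the 300 members, marked by whether the member differed between oocytes at an adjusted p under 0.05 and by its 2 highest oocytes. Of the 126 past the threshold 63 had oocytes 2 and 3 highest and 61 oocytes 1 and 4, and the factor reached 2.55.

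The most abundant member, AMEXTC_0340000121907, was second in the whole table. In oocytes 1 to 4 it had 5049, 11860, 10453 and 6400 CPM in segment A, 5622, 10721, 9533 and 6065 CPM in B, and 6073, 10063, 10235 and 6218 CPM in C. It had 7912, 13004, 12785 and 7440 CPM in D and 7632, 15151, 12246 and 7035 CPM in E. Oocytes 2 and 3 lay above oocytes 1 and 4 in every segment without overlap, and in each oocyte D and E were above A, B and C. Averaged over segments it was 1.88 times as high in oocyte 2 as in oocyte 1 (adjusted p between oocytes 1.8e-07, edgeR quasi-likelihood F-test), and all 10 alternatives passed the threshold, the highest adjusted p being 8.7e-05. Without this member the 300 would hold 9.68% ± 0.438 in A in place of 10.5% ± 0.748 (SD, n = 4).

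AMEXTC_0340000120605 followed the same course. It had 2027, 4288, 3942 and 2444 CPM in segment A of oocytes 1 to 4 and 2952, 5451, 4616 and 2733 CPM in E. Between A and E it had 2232, 3990, 3512 and 2307 CPM in B, 2356, 3823, 3841 and 2450 CPM in C, and 2987, 4726, 4895 and 2887 CPM in D. Oocytes 2 and 3 were again above the others in every segment (adjusted p between oocytes 1.3e-07, edgeR; highest of 10 alternatives 7.8e-05). The counts of AMEXTC_0340000121907 over those of AMEXTC_0340000120605 were from 2.49 to 2.78 in all 20 libraries, although the CPM of the former spanned a factor of 3.001 and that of the latter 2.69. This ratio was computed after the values were seen, and whether both identifiers belong to 1 gene is not shown by the files.

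AMEXTC_0340000068714 had the widest difference between oocytes of any member and the lowest adjusted p. It had 1489, 5037, 4836 and 2009 CPM in A of oocytes 1 to 4, 1934, 4472, 4243 and 1931 CPM in B, and 1984, 4492, 4853 and 1976 CPM in C. It had 2436, 4966, 5673 and 2376 CPM in D and 1967, 6013, 5013 and 2079 CPM in E. The lowest value of oocytes 2 and 3 was above the highest of oocytes 1 and 4 across all segments. The mean of oocyte 2 was 2.55 times that of oocyte 1 (adjusted p 3.1e-08, edgeR; highest of 10 alternatives 4.5e-05). Its ratio to AMEXTC_0340000121907 was not constant, the latter being from 2.11 to 3.88 times as high.

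The other members among the 3 of highest level differed less between oocytes. AMEXTC_0340000004362 had 3395, 4538, 3975 and 3595 CPM in A of oocytes 1 to 4, 3508, 4350, 3938 and 3527 CPM in B, and 3741, 4537, 4169 and 3485 CPM in C. It had 4617, 5886, 6030 and 4108 CPM in D and 3876, 6768, 5470 and 3991 CPM in E, and oocytes 2 and 3 were the 2 highest in every segment. The highest oocyte mean was 1.39 times the lowest (adjusted p 0.00036, edgeR; highest of 10 alternatives 0.014).

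AMEXTC_0340000069218 showed no call between oocytes. It had 2836, 3817, 3402 and 3289 CPM in A of oocytes 1 to 4, 3149, 3398, 2970 and 3038 CPM in B, and 3258, 3170, 3226 and 3141 CPM in C. It had 4177, 3829, 3784 and 3779 CPM in D and 3769, 4713, 3491 and 3595 CPM in E. The oocytes changed order from segment to segment, the highest oocyte mean was 1.12 times the lowest, and the adjusted p was 0.294 (edgeR), with 0.181 to 0.852 over 10 alternatives.

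An opposite order of oocytes was seen in AMEXTC_0340000091861, the abundant member named above after its values were seen. Its mean over the segments was 2458 CPM in oocyte 1, 1690 in oocyte 2, 1602 in oocyte 3 and 2749 in oocyte 4, with an adjusted p between oocytes of 2.0e-05 (edgeR). Abundant members thus differed between oocytes in both directions.

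At the lower end, AMEXTC_0340000242700 had 198, 193, 184 and 178 CPM in A of oocytes 1 to 4, 170.5, 176, 169 and 172 CPM in B, and 185, 166, 158 and 169 CPM in C. It had 196, 186, 155 and 164 CPM in D and 169, 141, 141 and 148 CPM in E. All values of E were below all values of A, and the oocytes did not differ past the threshold (adjusted p 0.227, edgeR). Over 10 alternatives the adjusted p between oocytes ran from 0.017 to 0.649, and 1 alternative passed the threshold.

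**Figure D5:**
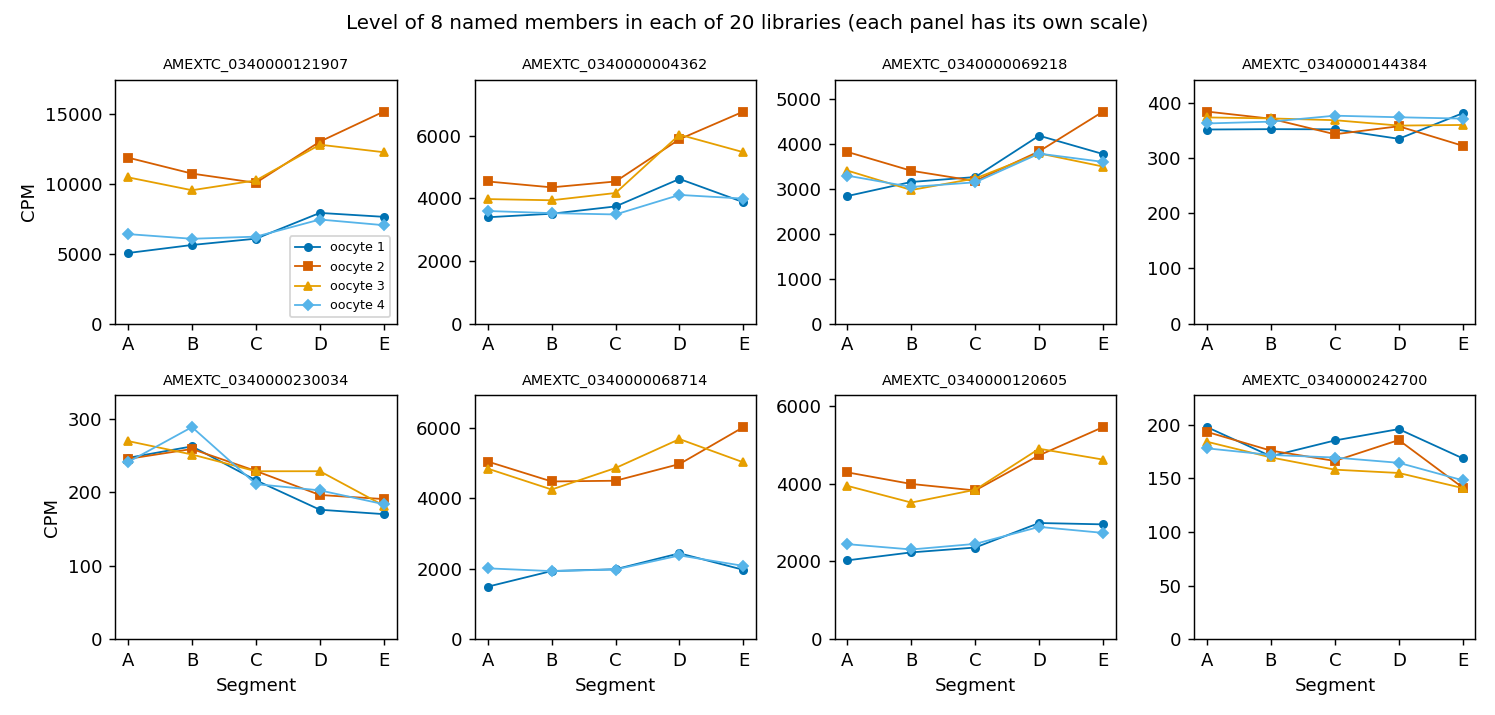
CPM of 8 named members in segments A to E, 1 line per oocyte, each panel with its own axis from 0. AMEXTC_0340000121907, AMEXTC_0340000068714 and AMEXTC_0340000120605 show oocytes 2 and 3 above oocytes 1 and 4 in every segment, AMEXTC_0340000144384 is near 360 CPM throughout, and AMEXTC_0340000230034 is lower in E than in A in each oocyte.

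Whether a profile that is even in some oocytes is also even in another was examined by applying the rule to 3 oocytes and reading the shares of the 300 features so chosen in the oocyte left out. All 5 shares were within 16 to 24% for 66.3% of them in oocyte 1, 71.0% in oocyte 2, 80.7% in oocyte 3 and 84.0% in oocyte 4, or 75.5% ± 8.23 (SD, n = 4). Among all features as abundant, the chosen ones included, these values were 34.1, 33.6, 38.8 and 40.6%, or 36.8% ± 3.45. Among those as abundant but not chosen, which had failed the rule in the other 3 oocytes, they were 12.4, 6.71, 10.1 and 12.2%, or 10.3% ± 2.63. The percentage was higher for the chosen features in each of the 4 oocytes, by more than the spread between oocytes. The 4 choices share oocytes with each other, so no p-value is given. Of the 300 members, from 268 to 280 were chosen again when an oocyte was left out, which the 3 oocytes common to both choices in part fix.

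In the single oocytes that went into the rule, 215 members met the limits in oocyte 1, 226 in oocyte 2, 252 in oocyte 3 and 256 in oocyte 4, and 142 members (47.3%) met them in all 4. At least 3 oocytes met them for 231 members. The highest segment of a single oocyte exceeded its lowest by a median factor of 1.30 in oocyte 1, 1.26 in oocyte 2, 1.28 in oocyte 3 and 1.25 in oocyte 4. The median share in E was 19.3% in oocyte 1 and 18.0 to 18.4% in the other 3, and in A it was from 20.3 to 20.7% in all 4.

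The tests among segments use the same contrast as the rule and are given as a description. At an adjusted p under 0.05, 49 members differed among the 5 segments (edgeR quasi-likelihood F-test), beside 13.0% of all features tested and 49.9% of the equally abundant ones. With the oocyte as a block, which pairs the segments of 1 oocyte, 85 members did, beside 18.9% of all features tested and 64.3% of the equally abundant ones. Of the 49, ranked on shares of library totals, D was highest for 30, E for 18 and B for 1. The lowest segment was B for 23, A for 17, C for 8 and E for 1. The test itself used TMM factors, with which the median share of all members in E was 20.9% and not 18.5%. The order of D and E can therefore differ on the scale of the test. Without the block, the number of members called was 24 without oocyte 3 and 25 without oocyte 4. The share of all features called in those fits is not given here, so whether the drop concerns the members cannot be told.

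Between the poles, 54 members (18.0%) differed with TMM factors, beside 15.8% of all features tested and 53.4% of the equally abundant ones (edgeR quasi-likelihood test). All 54 were higher in E, beside 8.10% of all features tested, and 0 were higher in A, beside 7.73%. With the oocyte as a block 99 differed, beside 22.5% of all features tested and 69.3% of the equally abundant ones. Of the 99, 95 were higher in E, beside 10.6% of all features tested, and 4 higher in A, beside 12.0%. Without oocyte 3 and without the block the number was 30, and the share of all features in that fit is not given here. The direction depended on the scaling, since on library totals 10 had the higher level in E and 78 in A, beside 6.41 and 15.9% of all features tested. With the authors' constants these were 0 and 291, beside 4.29 and 53.6%. Of the equally abundant features, 67.1% were called in either direction on library totals and 92.4% with the authors' constants. The median log2 fold change from A to E was 0.11 for the members and -0.06 for all features tested with TMM factors, -0.14 and -0.32 on library totals, and -0.91 and -1.09 with the authors' constants. On each of these scales the median of the members lay above that of all features tested, which the limit on the share in E in part fixes.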

How the data were processed

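The authors deposited raw counts of 32960 features in 20 libraries, and a table of scaled values. In the latter the authors multiplied the count by a constant per library, which gives a signal on a scale of their own; dividing by it gave whole reads for 100% of values (within 0.01), of which 100% equalled the count. A count test on those reads with the constants as scaling called 26595 of 32302 features among segments (82.3%), and all 300 members. The constants differ between segments, so a feature with an even part of the RNA can be called there too. This number is thus not a count of localized RNAs. Per the submitters' processing notes, Trimmomatic, STAR 2.5.3a, kallisto and DESeq2 were used, with no role given; build and annotation are not given in the sources used here. Every feature reached at least 30 counts in some library. Oocyte numbers 1 to 4 follow the oocyte id given there. No pair of libraries held identical counts (0 pairs).

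CPM used library totals, as the rule of the members asks. Tests used edgeR 4.0.16 in R 4.3.3 on all features kept by filterByExpr (minimum count 10, minimum total 15; 32302 features), with TMM factors, robust quasi-likelihood dispersions and Benjamini-Hochberg adjustment over all of them. The test between oocytes had segment and oocyte as terms; the tests among segments had segment alone, with the oocyte block as an alternative. Per the labels, a number marks 1 oocyte, which pairs its 5 libraries, and their deviations from the segment means, on log2 of CPM plus 1, correlated with a median r of 0.334 over 40 pairs (0.197 to 0.505). The scripts were tested on simulated data. Alternatives were RLE factors, library totals, no filter, DESeq2 1.42.0, an adjusted p under 0.01, thinning to 806943 counts, each oocyte left out, other limits, the median over oocytes, and 100 or 1000 members; the authors' constants and the removal of the most abundant member were chosen after seeing the data.

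The members and lists were chosen with earlier results of these data known. Named features are the 3 members of highest level, those with the smallest and largest span of shares, the 2 of lowest adjusted p between oocytes, the lowest member and the first even feature below it; others are said to be named after their values were seen. Marker and gene lists could not be applied without gene names.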

Additional observations from a re-analysis of the deposited data

Results flagged for a closer look

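In all, 50 groups of 4 libraries were checked for a value far from the others, and 1 was found. The groups were the summed part of the members in each segment and the level of each named feature in each segment. A chance rate of 1 in 20 would give about 2.5. The groups share the same 4 oocytes and the sums include named features, so no conclusion is drawn from that comparison. AMEXTC_0340000069218 had 4177 CPM in segment D of oocyte 1, against 3829, 3784 and 3779 CPM in segment D of oocytes 2, 3 and 4.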

How the results depend on the processing

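Of 176 values under an alternative, 97 stayed within the spread between oocytes or, for counts of features, within a factor of 1.5, and 79 did not. Some alternatives shift a value by construction, such as 100 or 1000 members, other limits or a stricter threshold. The tally is therefore not a measure of robustness. Unless a cause is named, the cause was not tested. The number of even features was 5258 with shares from 17 to 23%, 5515 in thinned libraries and 5 on the authors' scaled values, and from 7264 to 8123 with an oocyte left out. The percent of counts held by the members in segments A to E was 7.86, 7.87, 7.81, 7.34 and 6.42% with TMM factors, 7.79, 7.83, 7.76, 7.13 and 6.15% with RLE factors, 12.3, 12.2, 12.4, 13.6 and 12.9% with shares from 15 to 25%, and 7.83, 7.72, 7.85, 8.15 and 7.78% with shares from 17 to 23%. For 100 members it was 6.44, 6.35, 6.49, 7.31 and 7.09%, for 1000 members 19.6, 19.4, 19.7, 20.3 and 19.03%, and without the most abundant member 9.68, 9.60, 9.76, 10.3 and 9.72%. With an oocyte left out and members chosen again the lowest and highest values in segments A to E were 9.85 to 12.2%, 9.65 to 11.9%, 9.77 to 12.1%, 10.4 to 13.4% and 9.94 to 12.8%.

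The median CV, set against its jackknife standard error over oocytes, was 10.9, 8.73, 10.5, 13.1 and 13.6% in A to E of thinned libraries, where counting error is larger. For 1000 members it was 8.30, 9.20, 12.2 and 13.96% in segments B to E, for 100 members 8.81% in C and 12.5% in D, and 10.2% and 9.96% in D with TMM and RLE factors. With an oocyte left out it was 6.52 to 9.00%, 6.46 to 7.35%, 7.31 to 7.92%, 10.1 to 11.2% and 10.3 to 12.7% in segments A to E. The percent even in the oocyte left out was 60.8% with shares from 17 to 23% and 64.8% in thinned libraries.

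Members that differed between oocytes numbered 83 at an adjusted p under 0.01 and from 88 to 123 with an oocyte left out. Those that differed among segments numbered 85 with the replicate block, 81 by DESeq2 and 300 with the authors' constants. All features tested gave 18.9, 16.8 and 82.3% in that order, and the equally abundant ones 64.3, 55.7 and 100%. The number was 27 at an adjusted p under 0.01 and from 24 to 38 with an oocyte left out. Between E and A the members called numbered 99 with the replicate block, 87 by DESeq2, 88 on library totals and 291 with the authors' constants. All features tested gave 22.5, 18.4, 22.3 and 57.9% in that order, and the equally abundant ones 69.3, 58.4, 67.1 and 92.4%. The number was 28 at an adjusted p under 0.01 and from 30 to 57 with an oocyte left out. Shares beside the counts at an adjusted p under 0.01 and with an oocyte left out are not given here. The block could not be applied to the test between oocytes, where the oocyte is the factor tested.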

Other observations

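A mean over 4 oocytes can hide a single low library, as in AMEXTC_0340000212690 and AMEXTC_0340000224896, both named after their values were seen. AMEXTC_0340000212690 had 37.0 CPM (200 counts) in segment D of oocyte 1 and 264, 264 and 248 CPM in segment D of the other 3 oocytes, while its level in the other segments of oocyte 1 was from 158 to 204 CPM. Its profile was even in the means and not in oocyte 1. AMEXTC_0340000224896 had 62.7 CPM (172 counts) in segment C of oocyte 3, and 201, 188 and 224 CPM in C of oocytes 1, 2 and 4. In A, B, D and E of oocyte 3 it had 197, 246, 165 and 127 CPM. Over all members the highest segment over the lowest reached 5.51 in oocyte 1, 2.24 in oocyte 2, 3.92 in oocyte 3 and 1.90 in oocyte 4.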
